A study of Mus musculus with 20 samples.

Results

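The response of WT renal myofibroblasts to TGFβ1 was described from 10 of the 20 RNA-seq libraries of the series, 5 of untreated WT cells and 5 of WT cells treated with TGFβ1. Libraries were taken by genotype and treatment, and a gene was tested if 5 or more of the 20 libraries held 5 or more counts of it, which left 20407 of the 51826 genes in the table. Both groups were WT cells of the strain C57BL/6J, and the treated group differed by the addition of TGFβ1, whose dose and duration the labels do not give. The other 10 libraries held the same conditions in WWP2-/- cells, which lack an E3 ubiquitin ligase. Cells had grown out of minced kidney pieces and were harvested at passage 2, so a culture can hold other kidney cells that leave the tissue. The labels do not say which libraries came from separate mice, so P values measure the spread between these libraries, which may in part be technical. Libraries differed in sex-linked transcripts (below), so not all of them can be repeats of the same culture.

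TGFβ1 is secreted in a latent complex, and once released it binds a pair of serine/threonine kinase receptors that phosphorylate SMAD2 and SMAD3. These enter the nucleus with SMAD4 and switch on genes of the matrix and the contractile apparatus, together with inhibitors such as Smad7 and Skil that limit the signal. In the kidney, this pathway is known for turning fibroblasts into myofibroblasts, which carry smooth muscle actin in stress fibers and deposit collagen.

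The 10 WT libraries held between 47520759 and 61258382 counts. Levels are given as CPM, the count scaled to the TMM-normalized library total. A count of 0 still allows up to 0.0631 CPM in the shallowest WT library, a limit that covers counting error only. Libraries stood apart by sex-linked transcripts at a level of 1 CPM. Untreated replicates 1, 2 and 5 held both Xist and Y-linked transcripts, replicate 3 held only Xist, and replicate 4 held only Y-linked transcripts. With TGFβ1, replicate 1 held both, replicates 2, 4 and 5 held only Xist, and replicate 3 held only Y-linked transcripts. The first principal component of the 1000 most variable genes carried 68.6% of the variance. On it, untreated replicate 4 (-94.3) and TGFβ1 replicate 3 (-67.3), the libraries with Y-linked transcripts alone, lay farthest to one side, and TGFβ1 replicates 2 and 5 (69.0 and 65.7) lay farthest to the other. Differences of mean log2 CPM are therefore also given within the 3 classes: libraries with both kinds of transcript (3 untreated, 1 treated), with Xist only (1 untreated, 3 treated) and with Y-linked transcripts only (1 and 1). These within-class differences rest on so few libraries that no test was made within a class.

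**Figure D1:**
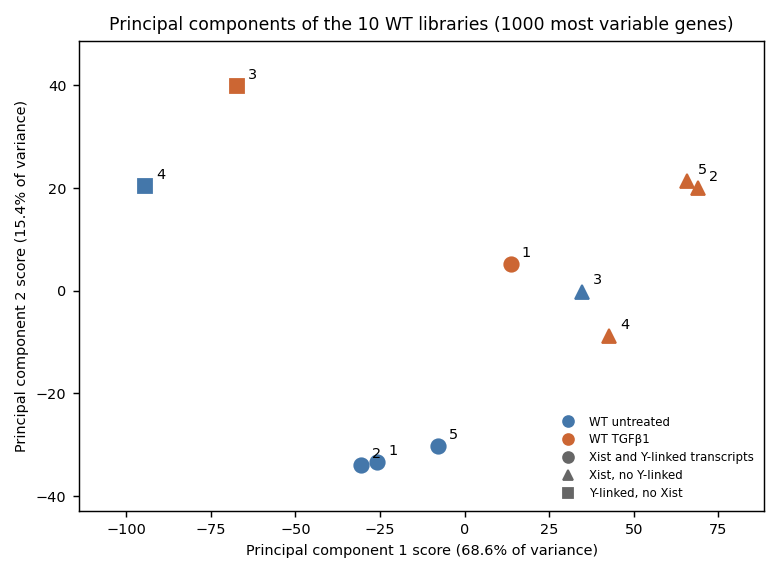
Scores of the 10 WT libraries on the first and second principal components of log2 CPM of the 1000 most variable genes. Colors give the treatment, symbols the sex-linked transcripts found at 1 CPM, and numbers the replicate. Untreated replicate 4 and TGFβ1 replicate 3 lie at the left (-94.3 and -67.3) although their treatment differs.

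Treated and untreated libraries overlapped for nearly all genes. Those that did not overlap held genes of the contractile apparatus on the higher side and of the antioxidant defense on the lower side, and, of the gene and marker lists, interferon-stimulated genes and macrophage markers had the medians farthest from 0, in part of the libraries. With edgeR's quasi-likelihood test and Benjamini–Hochberg adjustment over the 20407 genes, 0 genes (0%) passed an adjusted P of 0.05, and the smallest adjusted P was 0.641. At an unadjusted P below 0.05 there were 1397 genes, 543 higher with TGFβ1 (2.66%) and 854 lower (4.18%). DESeq2's Wald test, which the study used, called 27 of 20389 genes (0.132%), 13 higher and 14 lower. Every TGFβ1 library lay above every untreated library for 120 genes (0.588%) and below for 155 genes (0.76%). On counts scaled only to the library total, these were 42 (0.206%) and 200 (0.98%), and that scaling moved the median log2 fold change of all genes by -0.10. Without untreated replicate 4 and TGFβ1 replicate 3, they were 694 (3.4%) and 570 (2.79%). With fewer libraries a lack of overlap is easier to reach, so these larger counts alone show no clearer response. Since edgeR called no gene, "higher" and "lower" describe levels and log2 fold changes below, and an interval after a log2 fold change is its 95% interval in edgeR. By log2 fold change, 10762 of the 20407 genes were higher in the mean and 9645 lower. A list count near that share is no result about its list. Wwp2, the canonical genes plotted with it (24 in all) and the member of each list with the most counts were named whatever their values. All other genes, the DESeq2 calls and those without overlap among them, were chosen after their values were seen. The lists and their members were themselves chosen with earlier results of these data known. A list share set beside that of all genes is thus a description and no independent test.

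**Figure D2:**
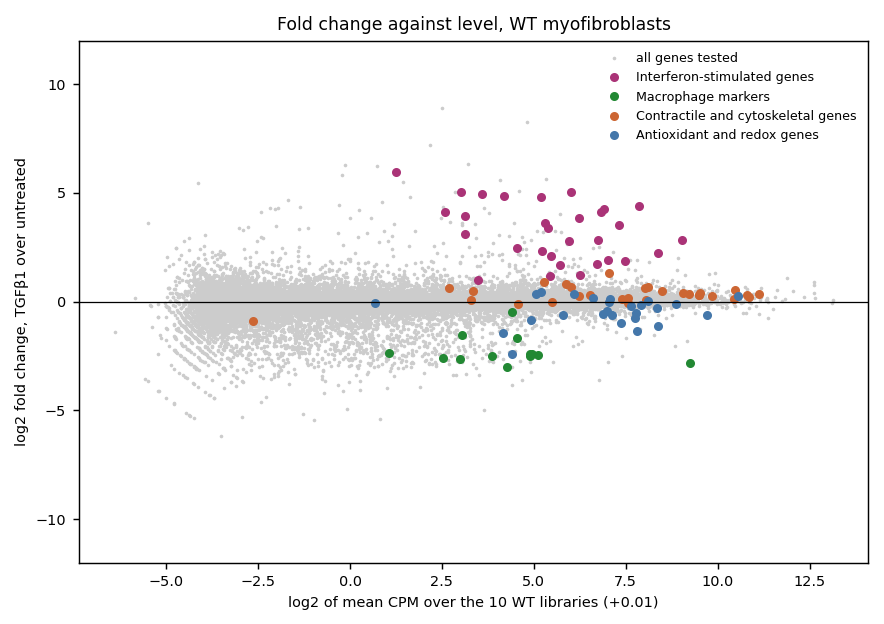
Log2 fold change of TGFβ1 over untreated (edgeR) against the log2 of the mean CPM of each of the 20407 genes tested in WT cells. The 30 interferon-stimulated genes lie above 0, the 13 macrophage markers below 0, and the contractile and antioxidant genes have medians of 0.30 and -0.35.

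Among the 27 genes called by DESeq2, 1 belonged to the 30 interferon-stimulated genes of the list used below (Mx1). Ifi47, an interferon-inducible GTPase, was 7.68, 8.19, 6.85, 6.71 and 7.84 CPM in untreated replicates 1 to 5 and 79.8, 133, 8.78, 10.2 and 110.2 CPM with TGFβ1. Its TGFβ1 libraries all lay above the untreated ones, but replicates 3 and 4 by little. Tgtp1 and Tgtp2, near-identical GTPases between which reads can be split, were also highest in TGFβ1 replicates 2, 5 and 1, and in replicate 4 they lay within the untreated range. Nrxn2, a synaptic adhesion gene, had the smallest unadjusted P in edgeR and was 1.73, 1.54, 1.74, 1.09 and 1.22 CPM untreated and 0.605, 0.341, 0.499, 0.707 and 0.245 CPM with TGFβ1, so every treated library was lower. Called genes that were lower included Clec7a, Csf2rb and Syk, all known from myeloid cells. Clec7a, a receptor for fungal glucans, was 30.7, 35.0, 2.17, 114 and 16.6 CPM untreated and 2.24, 1.22, 7.16, 2.14 and 1.10 CPM with TGFβ1. Untreated replicate 3 (2.17 CPM) lay among the treated libraries. Areg, an EGF receptor ligand, was 1.14, 1.49, 0.307, 2.30 and 0.499 CPM untreated and 0.242, 0.0801, 0.419, 0.0404 and 0.0408 CPM with TGFβ1. Of the smaller differences, Tnfrsf1b, a TNF receptor, was 84.8 ± 4.55 CPM (SD, n = 5) untreated and 107 ± 12.7 CPM (SD, n = 5) treated. Serpina3f and Serpina3g, neighboring members of a multigene family whose reads can be split, were also called, with log2 fold changes of 4.66 and 2.15. Serpina3f was at most 0.0466 CPM untreated, under the level that a count of 0 allows, and 0.665, 0.801, 0.12, 0.0606 and 1.25 CPM treated. Serpina3g was highest in treated replicates 1, 2 and 5, and replicate 3 (5.35 CPM) lay within the untreated range. Cxcl11, an interferon-inducible chemokine, was 0, 0, 0, 0 and 0 CPM untreated and 0.141, 0.280, 0, 0 and 0.0408 CPM treated, with no count in any untreated library and few in the treated ones.

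Of the TGFβ ligands and latent binding proteins, 6 of 9 were higher in the mean, with a median log2 fold change of 0.36, beside 0.016 for all genes tested. The clearest was Lrrc32 (ENSMUSG00000090958, chromosome 7, 98489283 to 98502181 on GRCm38), which encodes GARP, a cell-surface protein that holds latent TGFβ. Its level was 332, 295, 335, 285 and 407 CPM in untreated replicates 1 to 5 and 861, 939.6, 484, 472 and 1116 CPM with TGFβ1. Every treated library was higher, replicates 3 and 4 least, and the means were 331 ± 47.8 CPM (SD, n = 5) untreated and 774 ± 286 CPM (SD, n = 5) treated. The log2 fold change was 1.23 (95% interval 0.63 to 1.82), with an adjusted P of 0.641 in edgeR and 0.0365 in DESeq2. Within the classes, it differed by 1.33, 1.24 and 0.76 in libraries with both kinds of transcript, Xist only and Y-linked only. Ltbp2, a latent TGFβ binding protein, had a log2 fold change of 1.01 (0.15 to 1.87). Tgfb1 itself was 81.1, 92.3, 123, 115 and 74.4 CPM untreated and 77.6, 79.9, 77.0, 103 and 84.4 CPM treated, and its groups overlapped (log2 fold change -0.20, -0.67 to 0.26).

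Of 12 receptors and coreceptors, 11 were higher in the mean, with a median of 0.14 and a range of -0.01 to 0.57. Tgfbr2, which binds the ligand, was the member with the most counts (log2 fold change 0.29, -0.07 to 0.65). Tgfbr1, which phosphorylates the SMADs, had a log2 fold change of 0.03 (-0.27 to 0.32), so a change of more than 0.32 on the log2 scale lay outside its interval. Of 19 SMADs and feedback regulators, 18 were higher in the mean, by a median of 0.14, and no member was without overlap. Smad7, the inhibitory SMAD, had a log2 fold change of 0.05 (-0.35 to 0.45). Skil, a nuclear repressor of SMADs, had one of 0.14 (-0.48 to 0.75). Pmepa1, which sequesters receptor SMADs, had the most counts in the list and a log2 fold change of 0.35 (-0.28 to 0.99).

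The classical TGFβ1 targets had log2 fold changes of both signs. Of the target genes, 13 of 20 were higher in the mean, beside 10762 of all 20407 genes, with a median of 0.09 and a range of -1.95 to 1.01. At an unadjusted P below 0.05, 1 was higher and 1 lower, beside 2.66% and 4.18% of all genes. Without TGFβ1 replicate 3 the median was -0.08. Ccn2, a matricellular growth factor, was 1011, 1195, 1342, 2172 and 847 CPM untreated and 1888, 574, 4858, 763 and 681 CPM treated. Its highest library was TGFβ1 replicate 3, and 3 of the 5 treated libraries lay below every untreated one. Its log2 fold change was 0.42 (-0.99 to 1.82), and it was -0.43 without TGFβ1 replicate 3. An antisense gene covers 23.2% of the exon bases of Ccn2, and the strand setting of the counting was not stated.

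Il11, a profibrotic cytokine of fibroblasts, was lower in the mean, at 17.1, 22.3, 5.5, 61.4 and 11 CPM untreated and 6.78, 3.35, 13.5, 3.31 and 3.37 CPM treated. The overlap came from untreated replicates 3 and 5 and TGFβ1 replicates 1 and 3, and the log2 fold change was -1.95 (-3.70 to -0.20, adjusted P 0.679). Tgfbi, a secreted adhesion protein, was at a low level throughout, with no library above 7.22 CPM (log2 fold change -0.58, -1.87 to 0.71). Nox4, a hydrogen peroxide-producing NADPH oxidase, had a log2 fold change of 0.19 (-1.08 to 1.45) and was highest in the Y-linked-only libraries, at 165 CPM untreated and 254 CPM treated. Wwp2, the gene deleted in the other genotype, was 53.1 ± 4.14 CPM (SD, n = 5) untreated and 53.5 ± 2.89 CPM (SD, n = 5) treated. Its log2 fold change was 0.01 (-0.16 to 0.18), the narrowest interval of the 24 genes. Of 17 BMP, activin and Id genes, 9 were higher in the mean (median 0.25, but 0.069 without untreated replicate 4 and -0.075 in the libraries with Xist), and Id3, a SMAD-dependent inhibitor of basic helix-loop-helix factors, had a log2 fold change of 0.25 (-1.14 to 1.64).

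**Figure D3:**
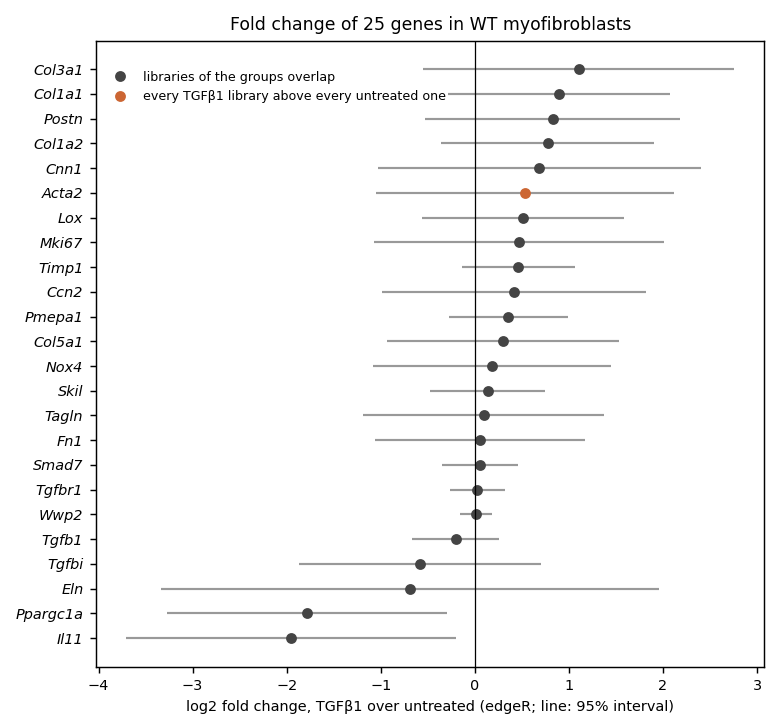
Log2 fold change of TGFβ1 over untreated in WT cells, with its 95% interval from edgeR, for 24 genes of TGFβ signaling, matrix, contraction and metabolism. Of these, Acta2 was the gene whose treated libraries all lay above all untreated ones, and the intervals of Il11 and Ppargc1a did not include 0.

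Of the contractile and cytoskeletal genes, 26 of 30 were higher in the mean, with a median of 0.30. In 7 of the 30 (23.3%), every treated library lay above every untreated one, beside 0.588% of all genes, and in 0 was the order the opposite. These were Acta2, Actg2, Csrp1, Myl9, Palld, Srf and Tpm2. On counts scaled to the library total there were 2, Myl9 and Tpm2 (6.67%), beside 0.206% of all genes. Without untreated replicate 4 and TGFβ1 replicate 3 there were 11 of 30, beside 3.4% of all genes. The median of the list was 0.45, 0.32, 0.33, 0.16 and 0.38 above the untreated mean in TGFβ1 replicates 1 to 5, and in the untreated libraries it was 0.01, 0.08, -0.05, -0.13 and 0.10. All 5 treated libraries were thus above all 5 untreated ones under TMM. On library totals, treated replicate 4 was at -0.0040, below untreated replicate 2 at 0.098, and the other 4 were between 0.16 and 0.40. Medians within the 3 classes were 0.35, 0.38 and 0.49.

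Acta2, which encodes smooth muscle α-actin and lies at chromosome 19, 34241090 to 34255590 on GRCm38 (ENSMUSG00000035783), was 1073, 1271, 1016, 1305 and 1132 CPM in untreated replicates 1 to 5 and 1766, 1432, 2019.6, 1549.8 and 1632 CPM with TGFβ1. The groups did not overlap, and TGFβ1 replicate 3, a Y-linked-only library, was the highest. Means were 1159 ± 125 CPM (SD, n = 5) and 1679.9 ± 226 CPM (SD, n = 5), and within the classes the difference was 0.61, 0.60 and 0.63, nearly the same in each. The log2 fold change in edgeR was 0.54 (-1.05 to 2.12), with an adjusted P of 0.954. The spread behind that interval was estimated over all 20 libraries, and in a fit of the 10 WT libraries alone its adjusted P was 0.32, equal to the smallest in that fit. Myl9, the regulatory light chain of smooth muscle myosin, was 219, 250.1, 172, 161 and 254 CPM untreated and 329, 348, 258, 409 and 366 CPM treated. Tpm2, a tropomyosin of actin filaments, was 199, 237, 233, 119 and 230.1 CPM untreated and 302, 285, 284, 392 and 302 CPM treated, and treated replicate 4 was the highest. Actg2, smooth muscle γ-actin, was 23.4, 28.1, 39.7, 15.4 and 28.2 CPM untreated and 53.9, 50.4, 45.2, 41.0 and 61.0 CPM treated. Srf, a transcription factor of contractile genes, was 67.9 ± 3.03 CPM (SD, n = 5) untreated and 82.4 ± 5.35 CPM (SD, n = 5) treated, with no overlap. Cald1, the actin-binding caldesmon and the member with the most counts, overlapped (log2 fold change 0.35, -0.18 to 0.88). Cnn1, calponin, ranged from 32.4 to 95.2 CPM untreated and from 35.2 to 119.6 CPM treated. Tagln, transgelin, ranged from 8.37 to 10.1 CPM untreated and from 7.99 to 13.3 CPM treated, and exons of the opposite strand cover 67.9% of its exon bases, so its count is uncertain.

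The CArG box, to which SRF binds, was searched in the promoter windows of RefSeq (GRCm38.p6, 250 bases before to 50 after the start). The pattern was CC, a run of A or T and GG, with no mismatch, on either strand. It was in 6 of the 35 windows of the 26 contractile genes matched by symbol (17.1%), which belong to 5 genes, and in 1.63% of all 32851 windows. Of the 7 genes without overlap, Myl9 and Srf held it and Actg2 had no entry. For the others, no exact match in these windows says nothing of SRF. A match describes letters and shows no binding, and the sequence shown is the 250 bases before the start. The window of Myl9 is shown since its treated libraries also stood apart on counts scaled to the library total. It lies at chr2:156775214-156775463 on the plus strand, and capitals mark the CArG box.
Myl9: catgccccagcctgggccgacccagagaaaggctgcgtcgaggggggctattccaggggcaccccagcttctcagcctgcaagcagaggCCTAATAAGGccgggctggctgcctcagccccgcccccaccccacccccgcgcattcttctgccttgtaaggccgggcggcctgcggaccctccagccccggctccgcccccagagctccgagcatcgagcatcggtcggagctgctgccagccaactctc

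Col1a1, Col1a2 and Col3a1 were higher in 4 of the 5 treated libraries and low in the Y-linked-only libraries of both groups. Of the fibrillar collagens, 8 of 11 were higher in the mean, with a median of 0.64 (0.41 without untreated replicate 4), and none was without overlap. Without untreated replicate 4 and TGFβ1 replicate 3, Col1a1, Col1a2, Col3a1 and Col5a2 were (36.4% of the list, beside 3.4% of all genes). Col1a1, the main chain of type I collagen, was 4794, 4339, 5795, 854 and 6151 CPM untreated and 8144, 10714, 3311, 7792 and 10845 CPM treated. Treated replicates 1, 2, 4 and 5 lay above every untreated library, and replicate 3 lay below all untreated libraries but replicate 4. Its log2 fold change was 0.90 (-0.29 to 2.08, adjusted P 0.859), and the within-class differences were 0.69, 0.74 and 1.95. Col1a2, the second chain, also lay above every untreated library in treated replicates 1, 2, 4 and 5 (log2 fold change 0.77, -0.36 to 1.90). Col3a1, the main chain of type III collagen, was 2611, 2358, 3286, 378 and 3327 CPM untreated and 5455, 8416, 106, 3832 and 7856 CPM treated, and treated replicate 3 was the lowest library of all. Col5a1, which nucleates collagen fibrils, had a log2 fold change of 0.30 (-0.93 to 1.53). Of 27 other collagens, 18 were higher (median 0.12), and Col6a4, at most 1.23 CPM, was without overlap. Col12a1, a fibril-associated collagen, was the member with the most counts (log2 fold change 0.03, -1.51 to 1.57).

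Of 47 ECM glycoproteins, 38 were higher in the mean, with a median of 0.35 (0.18 without untreated replicate 4). Sparc, a collagen-binding matricellular protein, was 5241, 5387, 6073, 4393 and 6074 CPM untreated and 6358, 6913, 7667, 8172 and 6690.2 CPM treated, with no overlap. Thbs3, a thrombospondin called by DESeq2, was 27.1 ± 3.07 CPM (SD, n = 5) untreated and 49.0 ± 13.7 CPM (SD, n = 5) treated, and treated replicate 4 overlapped the untreated range. Fn1, fibronectin, had the most counts of the list and a log2 fold change of 0.06 (-1.06 to 1.17), with treated replicate 3 highest and treated replicate 4 lowest of the 10. Postn, a matricellular protein of activated fibroblasts, ranged from 95.9 to 2090.0 CPM with TGFβ1 and from 174 to 1108 CPM without (log2 fold change 0.83, -0.53 to 2.18). Eln, elastin, had -0.69 (-3.34 to 1.96). Of 25 proteoglycans, 14 were higher (median 0.06), and Bgn, biglycan, had a log2 fold change of 0.23 (-0.99 to 1.46).

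Of 30 genes for collagen folding and crosslinking, 29 were higher in the mean, with a median of 0.36. Loxl1, an elastin crosslinking oxidase, and P3h1, a prolyl hydroxylase, had no overlap (6.67% of the list, beside 0.588% of all genes). On counts scaled to the library total, Loxl1 alone did (3.33%, beside 0.206%). Loxl1 was 690.3 ± 222 CPM (SD, n = 5) untreated and 1056 ± 124 CPM (SD, n = 5) treated. Lox, the lysyl oxidase with the most counts, had a log2 fold change of 0.51 (-0.57 to 1.58). Of 39 matrix proteases and inhibitors, 25 were higher (median 0.21). Timp1, an inhibitor of matrix metalloproteinases, had 0.46 (-0.14 to 1.07), and Timp2, with the most counts, 0.16 (-0.36 to 0.68). Matrix-binding integrins (12 of 18 higher, median 0.06) were led in counts by Itgb1 (0.07, -0.68 to 0.83). Of 27 mesenchymal transcription factors, 20 were higher (median 0.15). Foxd1, a factor of the renal stroma, had no overlap, at 18.8, 18.2, 15.3, 10.9 and 20.9 CPM untreated and 43.7, 27.6, 78.8, 25.5 and 24.9 CPM treated, with treated replicate 3 the highest. Prrx1, with the most counts, had a log2 fold change of 0.74 (-1.11 to 2.58).

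**Figure D4:**
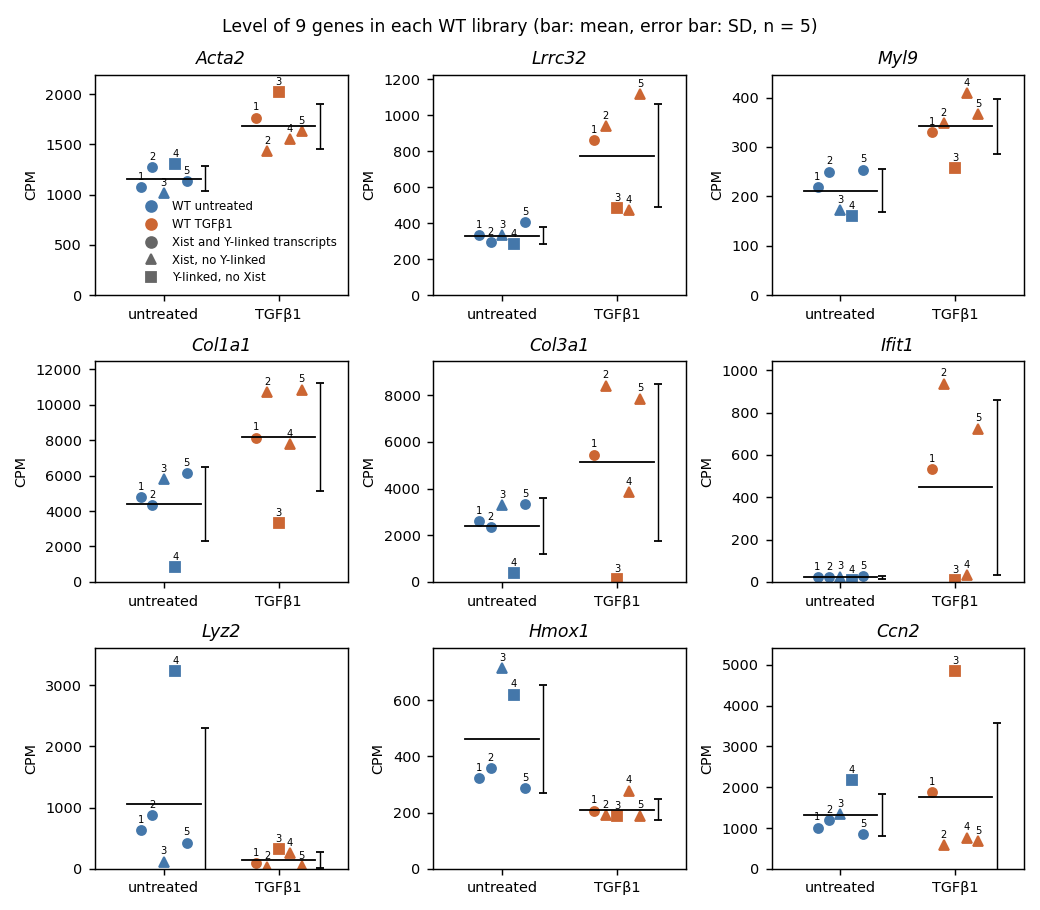
CPM of 9 genes in each of the 5 untreated and 5 TGFβ1-treated WT libraries, with group mean (bar) and SD (error bar, n = 5). Symbols give the class of sex-linked transcripts and numbers the replicate. Acta2 and Lrrc32 did not overlap between the groups, whereas Ifit1 was above 500 CPM in treated replicates 1, 2 and 5 alone.

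Interferon-stimulated genes were high in treated replicates 1, 2 and 5, slightly above the untreated level in replicate 4 and below it in replicate 3. Genes of this list are switched on by interferons. All 30 were higher in the mean, by a median of 3.25 on the log2 scale. At an unadjusted P below 0.05, 23 were higher, beside 2.66% of all genes, but none was without overlap. Without untreated replicate 4 and TGFβ1 replicate 3, 20 of 30 were, beside 3.4% of all genes. Medians within the 3 classes were 3.34, 3.02 and -0.50, and the median was 1.53 with the class as a covariate. The list median above the untreated mean was 3.39, 4.45, -1.0, 0.52 and 3.95 in TGFβ1 replicates 1 to 5 and 0.15, 0.04, 0.06, -0.51 and 0.31 in the untreated libraries. All 30 genes exceeded every untreated library in replicates 1, 2 and 5, 20 did so in replicate 4, and none did so in replicate 3, where 23 lay below every untreated library. Ifit3, an antiviral effector and the member with the most counts, was 139, 152, 138, 63.8 and 144 CPM untreated and 1049.6, 1863, 33.2, 174 and 1485 CPM treated. Isg15, a ubiquitin-like modifier, was 26.8, 28.7, 25.6, 10.8 and 32.9 CPM untreated and 327, 559.8, 8.12, 52.3 and 507 CPM treated. Replicates 1, 2 and 5 were high in both genes, and replicate 3 was the lowest of all 10 libraries. Cxcl10, an interferon-inducible chemokine, was 0.570, 0.771, 0.286, 1.30 and 0.407 CPM untreated and 27.4, 94.3, 0.519, 0.465 and 42.1 CPM treated, so it was high in the same 3 libraries, and replicates 3 and 4 lay within the untreated range.

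The interferon-stimulated response element (GAAA, any 2 bases and GAAA again, on either strand) was searched in the same RefSeq windows. It was in 14 of the 28 windows of the 23 list members matched by symbol (50%), and in 3.44% of all windows. The 250 bases before the start are shown for Ifit1, which encodes an RNA-binding antiviral protein, Ifit3 and Isg15, since their levels show how the treated libraries differed. The 3 matches of Isg15 overlap. The windows are chr19:34640639-34640888 (plus strand), chr19:34583279-34583528 (plus strand) and chr4:156200819-156201068 (minus strand, shown 5′ to 3′ of the gene), and capitals mark the matches.
Ifit1: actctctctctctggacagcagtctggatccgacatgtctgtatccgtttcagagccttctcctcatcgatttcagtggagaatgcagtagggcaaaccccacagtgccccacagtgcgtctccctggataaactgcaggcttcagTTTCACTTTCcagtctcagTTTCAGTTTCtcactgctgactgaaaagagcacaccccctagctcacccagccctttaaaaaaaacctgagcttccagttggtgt
Ifit3: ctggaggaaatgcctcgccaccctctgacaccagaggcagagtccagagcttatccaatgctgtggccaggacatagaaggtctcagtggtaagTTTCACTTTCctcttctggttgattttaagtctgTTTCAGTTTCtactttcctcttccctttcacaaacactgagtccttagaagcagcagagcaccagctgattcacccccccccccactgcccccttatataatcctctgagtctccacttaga
Isg15: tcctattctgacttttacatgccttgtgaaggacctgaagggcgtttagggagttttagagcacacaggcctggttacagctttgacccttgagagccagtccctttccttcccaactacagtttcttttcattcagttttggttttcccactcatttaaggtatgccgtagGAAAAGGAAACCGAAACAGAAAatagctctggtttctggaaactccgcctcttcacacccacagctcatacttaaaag

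Of the cytokines and chemokines, 24 of 35 were higher in the mean (median 0.64). At an unadjusted P below 0.05, 6 were higher and 3 lower, beside 2.66% and 4.18% of all genes. Ccl5 and Cxcl10, both interferon-inducible chemokines, had log2 fold changes of 6.35 and 5.61. Cxcl9, another of these, was at or below 0.0409 CPM in every untreated library, under the level that a count of 0 allows, and 10.8, 30.8, 0, 0.0202 and 14.6 CPM with TGFβ1. Csf1, the macrophage growth factor with the most counts, had a log2 fold change of 0.17 (-1.39 to 1.73). Of 16 complement genes, 9 were higher (median 0.40, range -2.47 to 3.16), and C1s1, a protease of the classical pathway, had 0.55 (-1.05 to 2.15). At an unadjusted P below 0.05, 1 complement gene was higher and 4 were lower, beside 2.66% and 4.18% of all genes. Growth factors and their receptors (26 of 40 higher, median 0.22) were led in counts by Igfbp3, which binds insulin-like growth factors and was 9.11 CPM in untreated replicate 4 and 15.1 CPM in TGFβ1 replicate 3 but at least 1753 CPM in the other libraries. Secreted Wnt ligands and antagonists had a median of 0.33, with Dkk3 highest in counts (-0.06, -1.72 to 1.61), and the median was -0.13 without TGFβ1 replicate 3.

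Markers of macrophages and tubular epithelium were lower in the mean with TGFβ1 and varied widely between libraries. Of 14 macrophage markers, 13 were tested and all 13 were lower, with a median log2 fold change of -2.47. At an unadjusted P below 0.05, 12 were lower, beside 4.18% of all genes. Medians within the 3 classes were -2.22, -0.36 and -2.73, so the Xist-only class differed least. The median was -1.20 with the class as a covariate and -1.56 without untreated replicate 4. Their summed level was 920.0, 1238, 169, 4209.8 and 605 CPM in untreated replicates 1 to 5 and 163, 84.8, 484, 346 and 86.1 CPM with TGFβ1. Untreated replicate 3, with 168.7 CPM, lay within the treated range, and replicate 4 was the highest. Lyz2, a lysozyme of myeloid cells, was 637, 882, 118, 3231 and 427 CPM untreated and 89, 36.3, 321, 251 and 41.1 CPM treated. In bulk libraries, fewer cells of a type and less RNA per cell cannot be told apart. Of 15 tubular epithelial markers, 12 were tested and 11 were lower, with a median log2 fold change of -2.15, which was -0.86 with the class as a covariate. Medians within the classes were -1.67, -0.65 and -1.34. Their summed level was 625, 726, 52.6, 1122 and 337 CPM untreated and 234, 70.8, 359, 51.0 and 53.2 CPM treated. Havcr1, which marks injured tubules and had the most counts, was 282, 315, 14.1, 683 and 139.8 CPM untreated and 104, 1.5, 141, 6.10 and 0.776 CPM treated.

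Fibroblast markers were present in every library, with summed levels of 15809, 14804, 20971, 4649 and 19621 CPM untreated and 24933, 33959, 10673, 24083 and 32532 CPM treated, and untreated replicate 4 and TGFβ1 replicate 3 were the lowest of their groups. Their median log2 fold change was 0.35, but 0.051 without untreated replicate 4 and 0.77 without untreated replicate 3. Endothelial markers (8 of 10 higher, median 0.59, and -0.46 without TGFβ1 replicate 3) were highest in TGFβ1 replicate 3, at 249.6 CPM summed, and Flt1, a VEGF receptor, had 0.44 (-0.18 to 1.07). Of smooth muscle markers 4 of 6 were higher (median 0.60), of pericyte and mesangial markers 6 of 8 (0.12) and of podocyte markers 2 of 5 (-0.09). Of 7 T and B cell markers, 2 passed the filter and Cd3e, Cd3d and Ms4a1 had no count in any WT library. Macrophage and tubular levels were thus lower in the mean with TGFβ1, but the groups overlapped and also differed in their classes of sex-linked transcripts. The part of these cells in the differences of the other lists was not tested. Gpnmb, a lysosomal glycoprotein of macrophages and injured tubules, was without overlap, at 803, 862, 432, 1794 and 565 CPM untreated and 235, 248, 190.0, 367 and 242 CPM treated.

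**Figure D5:**
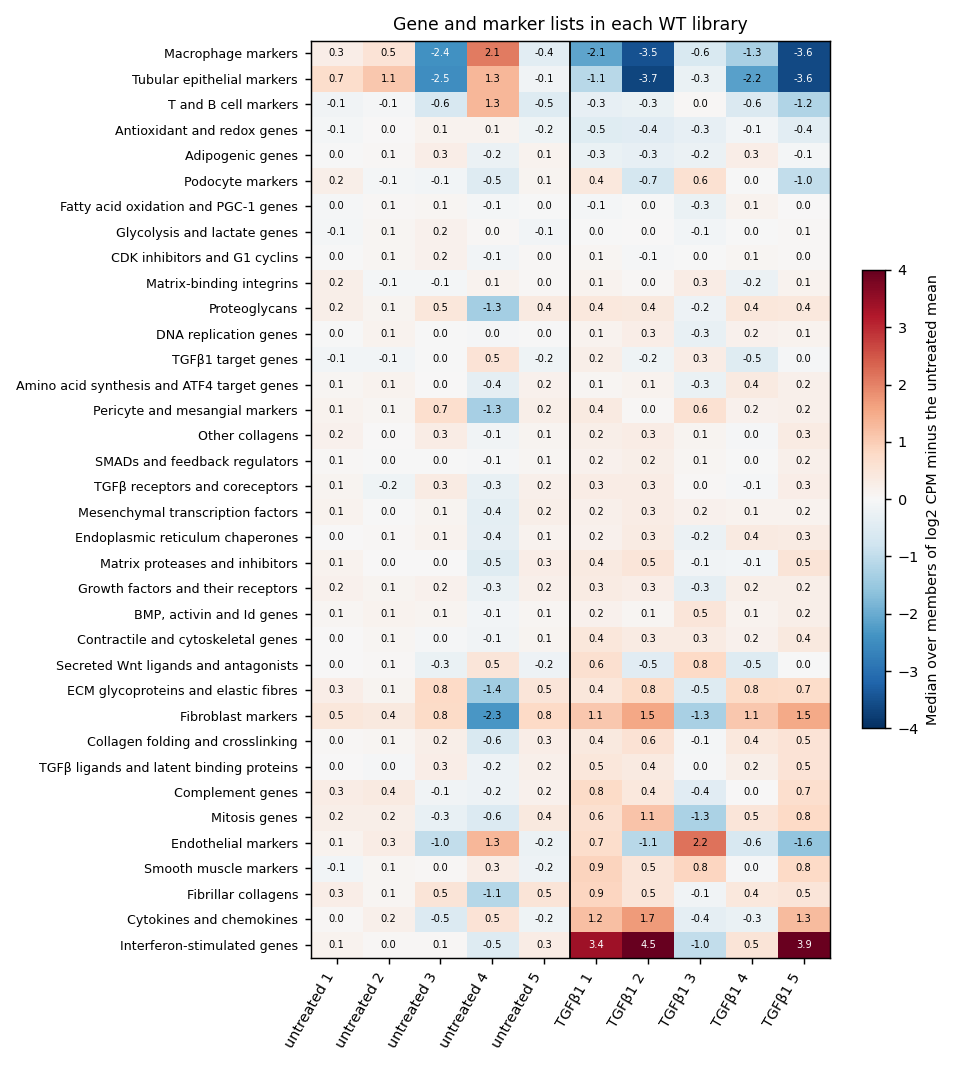
Median over the tested members of each gene list or marker list of log2 CPM minus the mean of the untreated libraries, for each of the 10 WT libraries. Lists are in order of their median log2 fold change. Macrophage and tubular markers are low in TGFβ1 replicates 2 and 5 (below -3), interferon-stimulated genes are high in replicates 1, 2 and 5 (3.39 to 4.45), and contractile genes lie between 0.16 and 0.45 in all 5 under TMM (on library totals replicate 4 is at -0.0040).

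Of 26 antioxidant and redox genes, 19 had a negative log2 fold change, and the median was -0.35. Among them Cybb (-2.42), a subunit of the phagocyte oxidase, is also known from macrophages. In 4 of the 26 (15.4%), every treated library lay below every untreated one, beside 0.76% of all genes. These were Gsr, Hmox1, Nqo1 and Srxn1, and on counts scaled to the library total they were Hmox1, Nqo1 and Srxn1 (11.5%, beside 0.98%). Without untreated replicate 4 and TGFβ1 replicate 3 there were 7 of 26, beside 2.79% of all genes. Hmox1, which breaks down heme, was 322, 358, 713, 619 and 288 CPM untreated and 207, 190.4, 188, 278 and 189 CPM treated. Nqo1, a quinone reductase, was 32.8, 32.4, 67.2, 34.4 and 28.4 CPM untreated and 19.2, 18.5, 23.0, 27.3 and 19.1 CPM treated. Gsr, which regenerates glutathione, was 67.3 ± 23.1 CPM (SD, n = 5) untreated and 44.0 ± 2.76 CPM (SD, n = 5) treated. Srxn1, which repairs peroxiredoxins, was 142 ± 33.3 CPM (SD, n = 5) and 94.7 ± 15.6 CPM (SD, n = 5). Adjusted P in edgeR was 0.916 for Hmox1, 0.935 for Nqo1, 0.641 for Gsr and 0.943 for Srxn1. Their differences were negative within each of the 3 classes, which the lack of overlap fixes in advance. Gpx3, the member with the most counts, had 0.27 (-1.05 to 1.6). The antioxidant response element (TGACNNNGC) was in 6 of the 28 windows of the 21 matched list members (21.4%), and in 12.4% of all windows. Of the 4 genes without overlap, Srxn1 held it, Nqo1 did not, and Gsr and Hmox1 had no entry.

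Ppargc1a, which encodes PGC-1α, the coactivator of mitochondrial biogenesis, was 5.13, 3.90, 0.675, 4.72 and 2.86 CPM untreated and 1.41, 0.761, 1.46, 0.687 and 0.694 CPM treated. Untreated replicate 3 (0.675 CPM) was below every treated library, and the 4 others lay above all of them. Its log2 fold change was -1.79 (-3.27 to -0.30), with an adjusted P of 0.644. Within the classes, Ppargc1a differed by -1.43, 0.08 and -1.67 in libraries with both kinds of transcript, Xist only and Y-linked only. On the untreated side, the Xist-only value rests on replicate 3 alone. Of 30 genes of fatty acid oxidation and PGC-1, 15 were higher and 15 lower (median -0.00). Glycolysis genes had a median of 0.03, and Gapdh had -0.02 (-0.28 to 0.23). Amino acid synthesis and ATF4 target genes had 0.09, endoplasmic reticulum chaperones 0.20 and adipogenic genes -0.15.

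Mitosis genes were higher than in any untreated library, by their list median under TMM, in 4 of the 5 treated libraries. All 30 mitosis genes had a positive log2 fold change, with a median of 0.48, and none had an unadjusted P below 0.05. The list median was 0.64, 1.14, -1.25, 0.47 and 0.80 in TGFβ1 replicates 1 to 5 and 0.23, 0.24, -0.30, -0.56 and 0.40 in the untreated libraries, and TGFβ1 replicate 3 was the lowest of the 10. On library totals, treated replicate 4 was at 0.30, below untreated replicate 5 at 0.34. Medians within the 3 classes were 0.37, 1.19 and -0.90. Mki67, a marker of cycling cells, was 8.73, 8.27, 5.42, 4.84 and 11.1 CPM untreated and 12.8, 14.8, 1.84, 9.72 and 13.9 CPM treated (log2 fold change 0.47, -1.07 to 2.01). Top2a, with the most counts, had 0.63 (-0.67 to 1.93). Of 30 DNA replication genes, 18 were higher (median 0.06), and Mcm4, a helicase subunit, had no overlap under TMM but did on counts scaled to the library total, at 26.5 ± 2.45 CPM (SD, n = 5) and 31.7 ± 1.87 CPM (SD, n = 5). Of 20 CDK inhibitors and G1 cyclins, 12 were higher (median 0.04), Gadd45b, a stress-induced growth regulator, was without overlap under TMM alone and not on library totals (log2 fold change 0.49, 0.08 to 0.90), and Cdkn1a, the CDK inhibitor p21, had 0.09 (-0.39 to 0.57).

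The WT response was compared with that of WWP2-/- cells by the difference of the log2 fold changes in the same fit. By edgeR, 0 of 20407 genes (0%) were called for a different response at an adjusted P of 0.05, and the smallest adjusted P was 0.511. A lack of calls does not show that the responses were equal. In edgeR, 1424 genes had an unadjusted P below 0.05, and DESeq2 called 10. Acta2 had a log2 fold change of 0.54 in WT and -0.35 in WWP2-/- cells, a difference of 0.88 (adjusted P 0.962). Lrrc32 had 1.23 and 0.04, a difference of 1.18 (adjusted P 0.549). The mitosis list had medians of 0.48 in WT and -2.06 in WWP2-/- cells, and Mki67 differed by 3.19 (adjusted P 0.546). Interferon-stimulated genes had medians of 3.25 and -0.01, and macrophage markers -2.47 and 0.92. Contractile genes had 0.30 and -0.18. In WWP2-/- cells, 3 of 5 untreated and 4 of 5 treated libraries held Y-linked transcripts only, beside 1 of 5 in each WT group, and the part of this in the differences was not tested by list. The WT and WWP2-/- comparisons use different libraries, and none of the differences of these lists was tested as a list.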

How the data were processed

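RNA from cultured renal myofibroblasts was sequenced as poly-A paired-end libraries. Per the study's methods, the authors aligned reads with STAR to the mouse genome and counted exon fragments per gene with featureCounts, without stating a strand setting, and the authors deposited raw counts. The members and lists were chosen with earlier results of these data known. All 20 libraries (4 groups) were fitted with edgeR (version 4.0.16 in R 4.3.3), with TMM normalization, the quasi-likelihood test and Benjamini–Hochberg adjustment at 0.05, after keeping genes that held 5 or more counts in 5 or more libraries. DESeq2 (1.42.0, Wald test) was an alternative. Log2 CPM for principal components used a prior count of 2. A list is described by counts and medians of edgeR's log2 fold changes, with no set test. Libraries with 1 CPM or more of Xist or of Y-linked transcripts were put in 3 classes, and differences within a class are of mean log2 CPM. Genes named by rule were Wwp2, the other canonical genes and the member of each list with the highest mean CPM. Of these, 1 canonical gene and the member of 1 list are not reported here. The further parts of that rule need a call and took none. Names are those of GENCODE on GRCm38, and promoter windows are from RefSeq. Scripts were tested on simulated data.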

Additional observations from a re-analysis of the deposited data

Results flagged for a closer look

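Of 120 groups of 5 libraries examined, 22 held a library whose gap to its neighbor was large beside the range. The rule flags about 1 in 20 independent groups by chance. These groups shared the same 10 libraries, so their count cannot be set against that rate. Untreated replicate 4, which held Y-linked transcripts only, was 13 of the 22. It was highest for Cnn1 (95.2 CPM), Nox4 (165 CPM) and the summed macrophage (4210 CPM), endothelial (111 CPM) and T and B cell (0.9 CPM) markers, and its list median of TGFβ1 target genes lay 0.532 above the untreated mean on the log2 scale. Its list medians were lowest for fibrillar collagens (-1.14), proteoglycans (-1.35), collagen folding and crosslinking (-0.602), ATF4 targets (-0.36), endoplasmic reticulum chaperones (-0.359), growth factors (-0.259) and BMP, activin and Id genes (-0.114). Untreated replicate 2 was highest for DNA replication genes (0.132).

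TGFβ1 replicate 3, also with Y-linked transcripts only, was 6 of the 22. Its summed endothelial markers were highest (250 CPM), and its list medians were lowest for mitosis (-1.25), ECM glycoproteins (-0.523), growth factors (-0.349), DNA replication (-0.308) and proteoglycans (-0.218). TGFβ1 replicate 4 was highest for Tgfb1 (103 CPM) and Eln (17.3 CPM). The part of these libraries in the results was not tested beyond leaving them out.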

How the results depend on the processing

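edgeR called 0 genes with TGFβ1 in every alternative but 3, and in each of the 10 fits that left out 1 library (smallest adjusted P 0.0812 without TGFβ1 replicate 3, to 0.99996 without replicate 2). DESeq2 called 27 (13 higher, 14 lower) and 10 genes for the difference between genotypes. With Xist as a covariate there was 1 call (1 higher, Cxcl9). With the class of sex-linked transcripts as a covariate, chosen after seeing the data, there was 1 (1 higher, Cdhr1) and 1 for the difference, and in the 10 WT libraries alone 1 (1 higher, Gm47015). The cause was not tested. The fit with a replicate block called 0 genes, and the numbers do not pair the libraries: deviations from the group means correlated by -0.52 to 0.30 in the 5 same-numbered pairs, above 0.1 in 2, and 1 of 5 libraries correlated best with its own number.

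Log2 fold changes of 8 canonical genes changed sign in some alternative. With the replicate block they were -0.0474 (Ccn2), -0.00937 (Fn1) and -0.0145 (Nox4). In libraries with Xist alone or both they were -0.0643 (Wwp2), -0.195 (Ccn2), -0.0383 (Smad7), -0.17 (Fn1) and -0.17 (Nox4). Fn1 was -0.0139 with Xist as a covariate and -0.00113 with the class in WT libraries, where Tgfbr1 was -0.0139 and Wwp2 -0.0209. Wwp2 was -0.0519 with the class, -0.0109 without the 10 most abundant genes and -0.00778 with at least 10 counts in every library. Leaving out 1 library gave -0.43 to 0.67 (Ccn2), -0.27 to 0.19 (Fn1), -0.47 to 0.52 (Nox4), -0.0133 to 0.28 (Skil), -0.0676 to 0.13 (Smad7), -0.0248 to 0.17 (Tagln), -0.0416 to 0.10 (Tgfbr1) and -0.0218 to 0.0536 (Wwp2). Genes at an unadjusted P below 0.05 numbered 841 without TGFβ1 replicate 2, 880 without replicate 5, 874 without untreated replicate 4, 2172 without TGFβ1 replicate 3 and 2274 without replicate 4. List medians also changed sign: podocyte markers from -0.70 without TGFβ1 replicate 3 to 0.50 with at least 10 counts in every library (-0.58 in libraries with Xist); in libraries with Xist BMP, activin and Id genes (-0.075), integrins (-0.030), proteoglycans (-0.020), pericyte markers (-0.030), Wnt genes (-0.0065) and TGFβ1 targets (-0.022); endothelial markers with the replicate block (-0.26); and ATF4 targets with the class (-0.027). Glycolysis, fatty acid oxidation and CDK inhibitor medians were within 0.04 of 0 and changed sign too. The median of interferon-stimulated genes was 1.53 to 3.57 over the alternatives and that of contractile genes 0.25 to 0.53.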
